A study of Rattus norvegicus with 12 samples.

Results

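Of the 17301 gene names in the RNA-sequencing tables of adult rat ventricular myocytes (ARVMs), 9 belong to the core of the renin-angiotensin and endothelin systems and were followed here: Agt, Ace, Agtr1a, Agtr2, and Agtrap on the angiotensin side, and Edn1, Ece1, Ednra, and Ednrb on the endothelin side. They were chosen by name as hypertrophic ligands, their processing enzymes, and their receptors, and all 9 were found, each as a single RefSeq transcript. ARVMs were isolated from male Sprague Dawley rats by collagenase perfusion and transduced at 50 MOI with an adenovirus encoding either green fluorescent protein (Ad-GFP, 6 samples) or human NR4A2 (Ad-h-NR4A2, 6 samples), and RNA was taken after 48 h. NR4A2 is an orphan nuclear receptor, and the comparison asks how its overexpression in otherwise unstimulated myocytes changed their transcripts. The human cDNA was driven by a cytomegalovirus promoter, which is active in any transduced cell and not only in myocytes. Both groups carried an adenovirus, and both were cultured without serum in a medium with insulin, transferrin, selenium, lipids, and the contraction inhibitor 2,3-butanedione monoxime. The samples were numbered 24 to 29 in each group, and the study describes its 6 experiments as independent, with ARVMs of different rats.

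Angiotensinogen, encoded by Agt, is the precursor of angiotensin I, which angiotensin-converting enzyme (Ace) converts to angiotensin II, the peptide that acts on the type 1 receptor (Agtr1a in the rat) and the type 2 receptor (Agtr2). Agtrap encodes a membrane protein that binds the type 1 receptor and promotes its internalization. Endothelin-1, made as a precursor from Edn1 and processed by endothelin-converting enzyme (Ece1), acts on the type A and type B receptors (Ednra and Ednrb), and both peptides are known to drive growth of cardiac myocytes through G proteins of the Gq class.

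Sequencing depth was 18800000 to 28000000 fragments per sample in Ad-GFP and 21500000 to 27300000 in Ad-h-NR4A2. The tables have no separate row for the human adenoviral transcript, and the row of Nr4a2 was at 0.884 ± 0.309 FPKM (mapped fragments scaled to transcript length and library size; SD, n = 6) in Ad-GFP and 524 ± 70.3 in Ad-h-NR4A2, in accord with the labels. The 5 cardiomyocyte markers summed to 17594 to 22757 FPKM in Ad-GFP and 15612 to 19211 FPKM in Ad-h-NR4A2, and the sum was lower in Ad-h-NR4A2 in every number (ratio 0.744 to 0.923). Among them, Myh7 averaged 273 ± 75.4 and 154 ± 62.0 FPKM (limma's adjusted p = 0.0146), and Myh6 averaged 1152 ± 104 and 781 ± 90.3 FPKM without overlap (adjusted p = 0.000114 by limma). Markers of other cell types were present at lower summed levels in every sample. They lay between 5.90 and 21.4 FPKM for 6 endothelial genes, between 5.82 and 30.3 FPKM for 7 fibroblast genes (Col1a2 was listed at 0 throughout), and between 8.78 and 24.3 FPKM for 6 mural genes. Of the leukocyte markers, Csf1r averaged 10.1 ± 3.87 FPKM in Ad-GFP and 40.2 ± 2.35 in Ad-h-NR4A2, without overlap, whereas Cd68 averaged 0.463 and 0.482 FPKM and Ptprc did not exceed 0.0489 FPKM in any sample. The part of these marker differences in the results for the 9 genes was not tested.

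Of the 9 genes, the type A endothelin receptor was the only one whose level passed both limits set for a change, an adjusted p below 0.05 together with group means at least 1.5 times apart. Ednra was about 2 times higher in Ad-h-NR4A2. Agtrap was lower by a smaller factor that passed the adjusted p but not the ratio, and Ace was lower in every sample pair but passed when samples with the same number were compared with each other, not in the unpaired test. Ece1, Ednrb, and Agtr1a did not pass either limit, Edn1 was near the detection limit, and Agt and Agtr2 were listed at 0 in nearly all or all samples. Thus 1 of the 6 genes that could be tested was called, where 15.2% of all 10950 genes tested were called, 7.94% as higher and 7.24% as lower. The median log2 fold change was -0.08 over these 6 genes and -0.02 over all genes tested. The other members, Agt, Agtr2, and Edn1, were left out of that test because at least 1 sample was at 0.

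**Figure D1:**
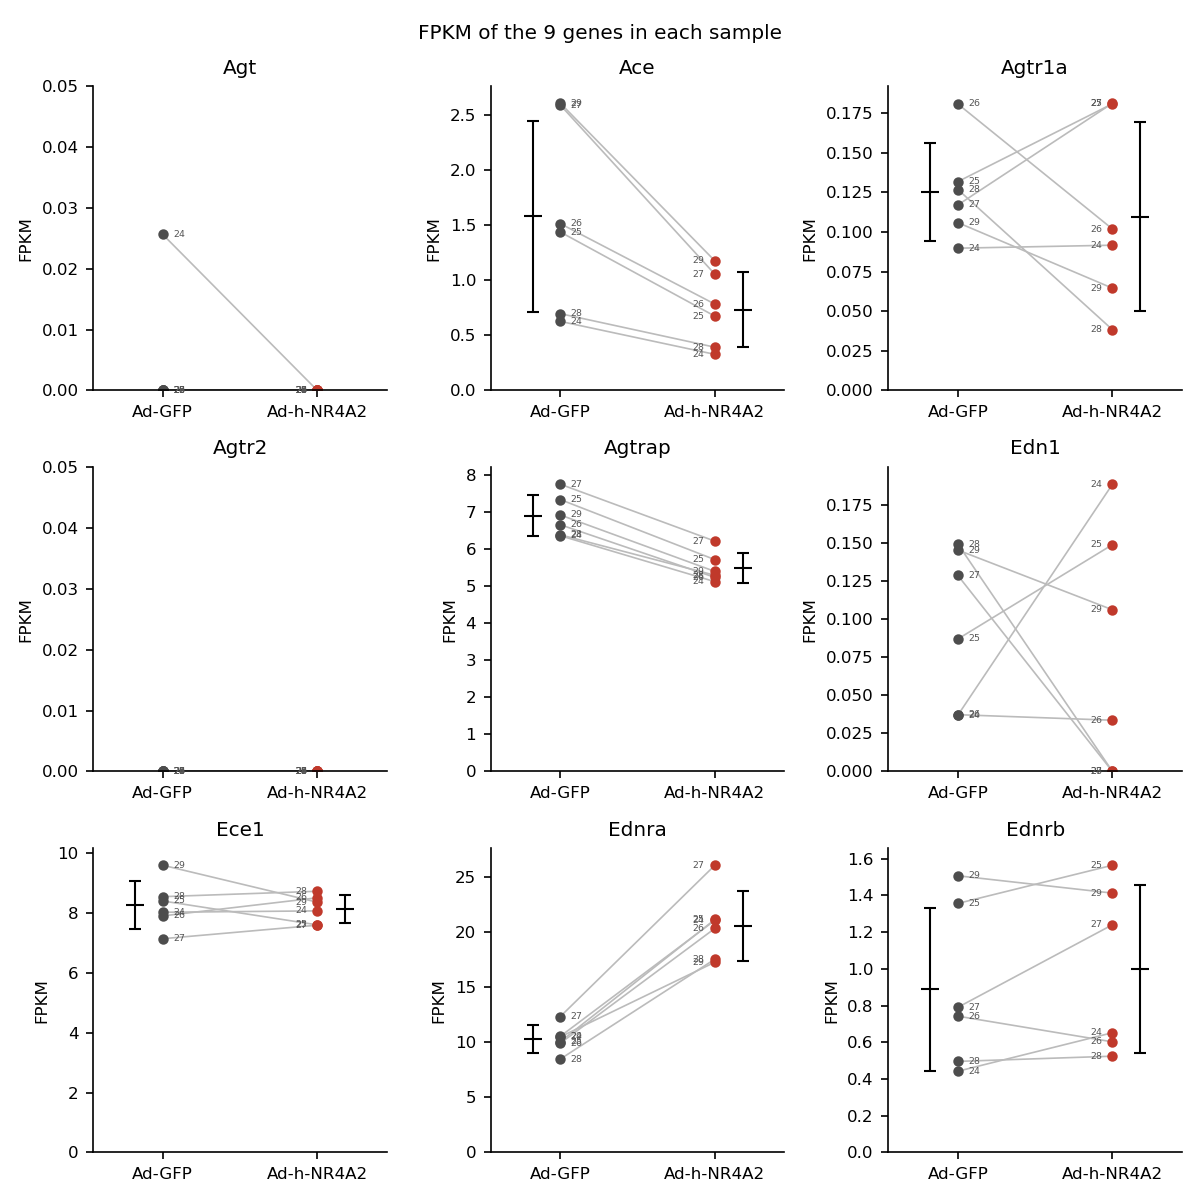
FPKM of each of the 9 genes (linear axes from 0, different for each gene) in the 6 Ad-GFP and 6 Ad-h-NR4A2 samples; points are samples, gray lines join samples of the same number (24 to 29), and the bars beside them are mean ± SD, drawn only where no sample was at 0. All lines of Ednra rise and all lines of Ace and Agtrap fall, while those of Ece1, Ednrb, Agtr1a, and Edn1 run in both directions.

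In Ad-GFP, the levels of the 9 genes ranged from 0 to about 10 FPKM. Ednra was highest (10.3 ± 1.25 FPKM), followed by Ece1 (8.28 ± 0.816) and Agtrap (6.89 ± 0.552), and the ranges of neighbors in this order overlapped. Below a gap came Ace (1.58 ± 0.870) and Ednrb (0.889 ± 0.444), whose ranges also overlapped. Agtr1a (0.125 ± 0.0311) was about the level of a few fragments, and its range overlapped that of Edn1. In Ad-h-NR4A2, the range of Ednra no longer overlapped that of Ece1, nor did Ece1 overlap Agtrap, and Ednrb stood above Ace in mean FPKM with overlapping ranges.

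The ligand precursors were scarcely detected. Agt (Rn5 chr19:68026227-68038550) was listed at 0 in 11 of 12 samples and at 0.0256 FPKM, a single fragment, in Ad-GFP 24. Edn1 (Rn5 chr17:24118009-24124009) was represented by 1 to 5 fragments per sample in Ad-GFP, where its lowest, median, and highest FPKM were 0.0370, 0.108, and 0.149. In Ad-h-NR4A2 the lowest, median, and highest were 0, 0.0698, and 0.188 FPKM, from 0 to 5 fragments. The groups overlapped, and samples 27 and 28 of Ad-h-NR4A2 were at 0. The total was 18 fragments of Edn1 in Ad-GFP and 14 in Ad-h-NR4A2, or 12.6 (95% exact Poisson interval 7.44 to 19.8) and 9.75 (5.33 to 16.4) per 100000000 fragments, intervals that cover counting error only. On the log2(FPKM + 0.1) scale the difference was -0.22 (two-sided exact permutation p = 0.491, n = 6 per group), and a difference in Edn1 was not detectable at this depth. Its size depends on the pseudocount, being -0.92 with 0.01 (exact permutation p = 0.331) and -0.03 with 1 (exact permutation p = 0.623).

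Among the processing enzymes, Ace had the larger difference. Ace (Rn5 chr10:93922062-93939118) encodes the peptidase that makes angiotensin II and degrades bradykinin, and in the heart it is best known on endothelial cells. Its lowest, median, and highest values were 0.626, 1.47, and 2.60 FPKM in Ad-GFP and 0.327, 0.728, and 1.17 FPKM in Ad-h-NR4A2, from 45 to 238 and 23 to 88 fragments per sample. The groups overlapped. Samples of the same number were high or low together, with numbers 24 and 28 lowest and 27 and 29 highest in each group.

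Within each number, Ace was lower in Ad-h-NR4A2. The ratios to Ad-GFP were 0.522 for number 24, 0.469 for 25, 0.517 for 26, 0.407 for 27, 0.563 for 28, and 0.451 for 29. The ratio of group means was 0.465 and the log2 fold change -0.94 (SE 0.38, 95% interval -1.75 to -0.13). In the unpaired limma fit across all genes the adjusted p was 0.0616, and the two-sided exact permutation test gave p = 0.0519 (n = 6 per group), so Ace was not called. With the number as a replicate block the SE was 0.096 and limma's adjusted p was 3.19e-05, so that Ace was called lower, as were 8.12% of all genes under that fit. An exact test over the 64 sign flips of the paired differences gave p = 0.03125, the smallest it can give. In the unpaired fit, Ace passed both limits without Ad-GFP 24 (limma's adjusted p = 0.0245), without Ad-GFP 28 (0.0320), or without Ad-h-NR4A2 29 (0.0439). These are the lowest Ad-GFP values and the highest Ad-h-NR4A2 value, so leaving one out widens the difference by construction. Without any other single sample, limma's adjusted p was 0.0542 to 0.127 and Ace did not pass.

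The summed endothelial markers varied with the sample number as well. They were lowest in numbers 24 and 28 (8.43 and 6.95 FPKM in Ad-GFP, 8.61 and 5.90 in Ad-h-NR4A2) and lay between 13.4 and 21.4 FPKM in the other numbers. Their ratio of Ad-h-NR4A2 to Ad-GFP within a number was 0.715 to 1.02, closer to 1 in every number than that of Ace, and 0 of the 6 markers was called by limma in either direction, with 0 at an unadjusted p below 0.05 and 0 called with the replicate block. Of these markers, Kdr came nearest, with a ratio of 0.687, lower values in 5 of 6 numbers, and limma's adjusted p of 0.269 unpaired and 0.00409 with the block. The fibroblast sum was lower in all numbers but 27 (ratio 0.619 to 1.27). Col3a1 was called lower (ratio 0.490), and Col1a1 (0.612) and Pdgfra (0.673) were lower in 6 of 6 numbers with limma's adjusted p of 0.0944 and 0.164 unpaired and 0.00616 and 0.0101 with the block. The part of endothelial cells and fibroblasts in the level of Ace was not tested. In RNA from whole cultures, fewer cells of a type cannot be told apart from less RNA of a gene per cell.

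**Figure D2:**
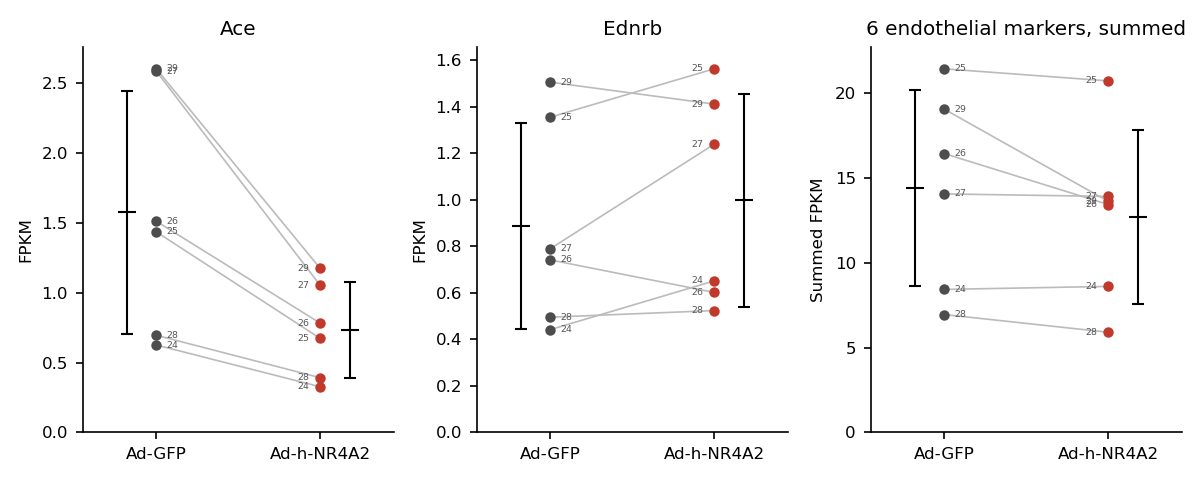
Ace, Ednrb, and the summed FPKM of 6 endothelial markers (Pecam1, Cdh5, Kdr, Tek, Tie1, Vwf), on linear axes from 0; points are samples joined by number, bars are mean ± SD of 6 samples. Numbers 24 and 28 are the lowest of each group for Ace and the endothelial sum, while only Ace falls by a ratio of 0.407 to 0.563 in every number.

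Transcripts of Ece1 (Rn5 chr5:159968604-160068655), the metalloprotease that releases endothelin-1 from its precursor, were at nearly the same level in the groups. The lowest, median, and highest values were 7.15, 8.22, and 9.60 FPKM in Ad-GFP and 7.60, 8.22, and 8.73 FPKM in Ad-h-NR4A2, and the ranges overlapped. Ece1 was higher in 4 numbers and lower in 2. The log2 fold change was -0.02 (SE 0.07), limma's adjusted p was 0.868, and the 95% interval of the fold was 0.886 to 1.10, so that larger changes in either direction lie outside the interval.

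Among the receptors, Ednra (Rn5 chr19:44812398-44874904, 4595 nt) stood apart. It encodes the type A endothelin receptor, the main endothelin receptor of ventricular myocytes. Its values in numbers 24 to 29 were 10.5, 10.1, 9.91, 12.3, 8.48, and 10.5 FPKM in Ad-GFP and 21.1, 21.1, 20.3, 26.1, 17.5, and 17.3 FPKM in Ad-h-NR4A2. Every Ad-h-NR4A2 sample was above every Ad-GFP sample, a separation in this direction that 10.9% of the genes tested also showed. The values rested on 837 to 1387 and 1757 to 2559 fragments per sample. The ratio of group means was 1.997 and the log2 fold change 0.99 (SE 0.10, 95% interval 0.76 to 1.21, limma's adjusted p = 6.54e-06).

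The rise of Ednra was of similar size in 5 numbers, with ratios of 2.00 to 2.11, and smaller in number 29 (1.65). The two-sided exact permutation test gave p = 0.00216, the smallest that 6 against 6 samples allow. Over all samples, 26.9% of gene names had a higher mean FPKM than Ednra, and its log2 fold change took place 434 among the 10950 genes tested. Markers of cells that can also carry this receptor were not called higher. Of the tested markers, 0 of 6 fibroblast and 0 of 5 mural genes passed upward by limma (0 and 0 at an unadjusted p below 0.05, and 0 and 0 with the replicate block). Col3a1 and Myh11 passed downward, as did Col1a1 with the block. The mural sum had a median of 13.2 FPKM in each group, but within a number it was lower in Ad-h-NR4A2 in all but 27 (ratio 0.674 to 1.19). The cardiomyocyte sum was lower in every number. The part of other cell types in the level of Ednra was not tested.

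The 250 bases upstream of the annotated start of Ednra are shown because it was the called gene, and those of Ace and Agtr1a for comparison (RefSeq, GRCr8; Ednra chr19:47137674-47137923, plus strand; Ace chr10:91409879-91410128, plus strand; Agtr1a chr17:34435433-34435682, minus strand). Capitals mark TATAAA or its complement and GGGCGG in Ace, and TATAAA and the complement of AGGTCA in Agtr1a. The sequences are 5′ to 3′ on the strand of the gene:
Ednra: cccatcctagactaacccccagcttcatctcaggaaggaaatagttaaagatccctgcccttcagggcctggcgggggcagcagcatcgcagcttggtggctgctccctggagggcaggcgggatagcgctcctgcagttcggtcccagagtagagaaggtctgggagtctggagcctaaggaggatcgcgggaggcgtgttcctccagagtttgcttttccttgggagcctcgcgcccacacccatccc
Ace: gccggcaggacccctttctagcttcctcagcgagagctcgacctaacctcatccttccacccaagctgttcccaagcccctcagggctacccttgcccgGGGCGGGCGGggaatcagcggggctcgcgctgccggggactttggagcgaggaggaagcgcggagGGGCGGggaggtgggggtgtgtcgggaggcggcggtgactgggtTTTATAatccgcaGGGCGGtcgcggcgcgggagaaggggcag
Agtr1a: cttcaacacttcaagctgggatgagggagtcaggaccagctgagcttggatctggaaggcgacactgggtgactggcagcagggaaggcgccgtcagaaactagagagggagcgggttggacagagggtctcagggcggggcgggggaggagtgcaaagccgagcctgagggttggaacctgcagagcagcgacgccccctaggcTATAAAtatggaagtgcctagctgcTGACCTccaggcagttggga

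Such windows were available for 8 of the 9 genes, without Agt, and were searched on both strands for 4 short motifs. AAAGGTCA, the NGFI-B response element (NBRE) to which NR4A receptors bind as monomers, was in 1.24% of 33469 rat promoter windows and in 0 of the 8. AGGTCA, the core that AAAGGTCA contains and that many nuclear receptors share, was in 14.1% of all windows and in that of Agtr1a, on the reverse strand, 20 to 15 bases before the start. TATAAA was in 12.9% of all windows and in those of Ace, Agtr1a, and Edn1. GGGCGG, the GC box, was in 30.5% of all windows and in those of Ace, Agtr1a, Agtrap, and Ece1. The window of Ednra held none of these letters, which describes these 250 bases and says nothing of binding elsewhere.

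Ednrb (Rn5 chr15:91502586-91531979) encodes the type B receptor, known on endothelial cells and for clearing endothelin. Its lowest, median, and highest values were 0.442, 0.766, and 1.51 FPKM in Ad-GFP and 0.524, 0.946, and 1.56 FPKM in Ad-h-NR4A2, from 18 to 78 and 25 to 79 fragments per sample. The groups overlapped almost entirely, 4 numbers were higher and 2 lower, and the levels again went with the number, being low in 24 and 28 (and in 26 of Ad-h-NR4A2) and high in 25 and 29. The log2 fold change was 0.16 (SE 0.33, limma's adjusted p = 0.727). The interval of the fold, for FPKM + 0.1, was 0.686 to 1.82 and overlapped that of Ednra (1.69 to 2.32). These unpaired intervals therefore do not show that the receptors changed differently. With the replicate block the interval of Ednrb narrowed to 0.920 to 1.36 and limma's adjusted p was 0.293. The paired data thus leave less room for a change in Ednrb than the unpaired data, but do not show that its level was equal. With the block the interval of Ednra was 1.83 to 2.15 and did not overlap that of Ednrb.

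Agtr1a (Rn5 chr17:37218832-37270540), the type 1 angiotensin II receptor, was at the lower end of detection. Its lowest, median, and highest values were 0.0897, 0.122, and 0.181 FPKM in Ad-GFP, from 4 to 8 fragments per sample, and 0.0383, 0.0967, and 0.181 FPKM in Ad-h-NR4A2, from 2 to 10. The ranges overlapped, with 3 numbers higher and 3 lower. The totals were 36 and 32 fragments, or 25.1 (95% exact Poisson interval 17.6 to 34.8) and 22.3 (15.2 to 31.5) per 100000000 fragments. The log2 fold change was -0.14 (SE 0.19, limma's adjusted p = 0.580) on a scale that understates changes of genes this low, and its interval of 0.688 to 1.20 in fold is for FPKM + 0.1.

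Agtr2 (Rn5 chrX:119535965-119537056), the type 2 receptor, was listed at 0 in all 12 samples. A single fragment would have been 0.0383 to 0.0575 FPKM in Ad-GFP and 0.0393 to 0.0497 in Ad-h-NR4A2, and the exact Poisson 95% interval of a count of 0 over a group reaches 2.57 fragments per 100000000 (2.09 at the floor of 3 fragments). The paralog Agtr1b was listed at 0 as well.

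Agtrap (Rn5 chr5:168546218-168556520), the type 1 receptor-associated protein, was the gene with the most uniform difference. Its values in numbers 24 to 29 were 6.35, 7.32, 6.65, 7.74, 6.38, and 6.91 FPKM in Ad-GFP and 5.11, 5.71, 5.23, 6.20, 5.28, and 5.39 FPKM in Ad-h-NR4A2. The highest Ad-h-NR4A2 sample was below the lowest Ad-GFP sample, a separation that 10.6% of genes tested showed in this direction. The ratio within a number lay between 0.779 and 0.829, beside 0.744 to 0.923 for the summed cardiomyocyte markers, whose part in this difference was not tested. The log2 fold change was -0.32 (SE 0.07, limma's adjusted p = 0.00293; two-sided exact permutation p = 0.00216), and the 95% interval of the fold was 0.718 to 0.891. Agtrap therefore passed the adjusted p, as 21.7% of all genes did downward and 19.3% upward, but its whole interval was within the ratio limit of 1.5.

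**Figure D3:**
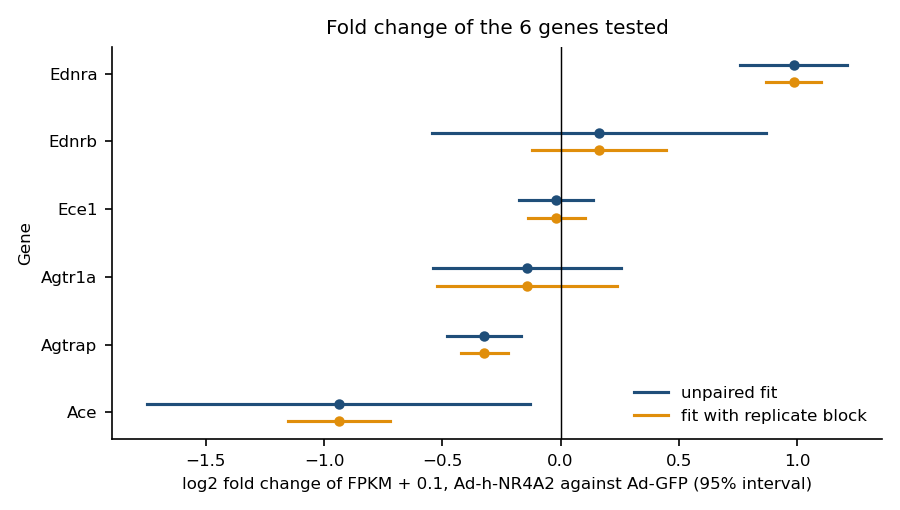
Log2 fold change of FPKM + 0.1 (Ad-h-NR4A2 against Ad-GFP) with its 95% interval for the 6 genes tested, without pairing (blue) and with sample number as a block (orange). The estimates coincide; the block narrows the intervals of Ace and Ednrb most, and the interval of Ednra lies above 0 in either fit.

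Other genes of these pathways were examined as lists that complete the cascades. Of 21 other renin-angiotensin genes, 13 could be tested, and 2 were called higher and 1 lower, where the shares over all genes tested were 7.94% and 7.24%. Enpep, which encodes the aminopeptidase that turns angiotensin II into angiotensin III, averaged 3.49 ± 0.721 FPKM in Ad-GFP and rose to 10.5 ± 2.41 (1.55 on the log2 scale, SE 0.18, limma's adjusted p = 1.85e-05). Prcp, a carboxypeptidase that can cleave angiotensin II to angiotensin-(1-7), rose from 2.92 ± 0.573 to 6.33 ± 3.43 FPKM (0.94, SE 0.30, adjusted p = 0.0220 by limma), with overlapping groups. Nr3c2, the mineralocorticoid receptor, fell from 12.9 ± 1.60 to 8.37 ± 1.08 FPKM (-0.62, SE 0.10, adjusted p = 0.000196 by limma). The median log2 fold change of the 13 was 0.11.

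Mas1, the receptor of angiotensin-(1-7), was listed at 0 in all Ad-GFP samples and reached at most 0.0499 FPKM in Ad-h-NR4A2. It was above 0 in 3 samples, with 4 fragments in total (0 to 2 per Ad-h-NR4A2 sample). In limma's fit without the filter on low values its adjusted p was 0.162, so a difference was not detectable.

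None of the 5 other endothelin genes was above 0 in all samples, so that 0 could be tested. Edn3 was listed at 0 throughout, Edn2 was above 0 in 1 sample, and Ece2 did not exceed 0.0481 FPKM. Of 6 kinin genes, 3 were listed at 0 in all samples, and the one tested, the bradykinin receptor Bdkrb2, had an adjusted p of 0.370 by limma. Bdkrb2 was lower in 5 numbers and higher in 1, and its lowest Ad-h-NR4A2 value was 0.000126 FPKM. With the block limma's adjusted p was 0.0344, but the ratio of 0.673 did not pass the limit.

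Of 15 genes that couple these receptors to the cell interior, 13 were tested, and 3 were called higher and 2 lower, against the same 7.94% and 7.24% of all genes. Plcb1, a phospholipase C activated by Gq, averaged 0.978 ± 0.303 FPKM in Ad-GFP and rose to 3.16 ± 0.454 (1.64 on the log2 scale, SE 0.18), and Plcb4 from 23.6 ± 2.49 to 42.0 ± 6.25 FPKM (0.82, SE 0.10). Itpr1, a receptor for inositol trisphosphate, rose from 5.61 ± 0.511 to 8.48 ± 0.669 FPKM (0.59, SE 0.08). The α-subunit gene Gna13 fell from 15.4 ± 1.77 to 9.80 ± 1.40 FPKM (-0.65, SE 0.10), and Itpr3 from 0.311 ± 0.177 to 0.148 ± 0.0587 FPKM (-0.67, SE 0.24, adjusted p = 0.0369 by limma). By the adjusted p alone, 3 rose and 6 fell (19.3% and 21.7% of all genes tested), and the median over the 13 was -0.22. Over all 47 genes of these lists, 27 were tested, and 5 were called higher and 3 lower, with a median of -0.10, beside -0.02 over all genes.

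**Figure D4:**
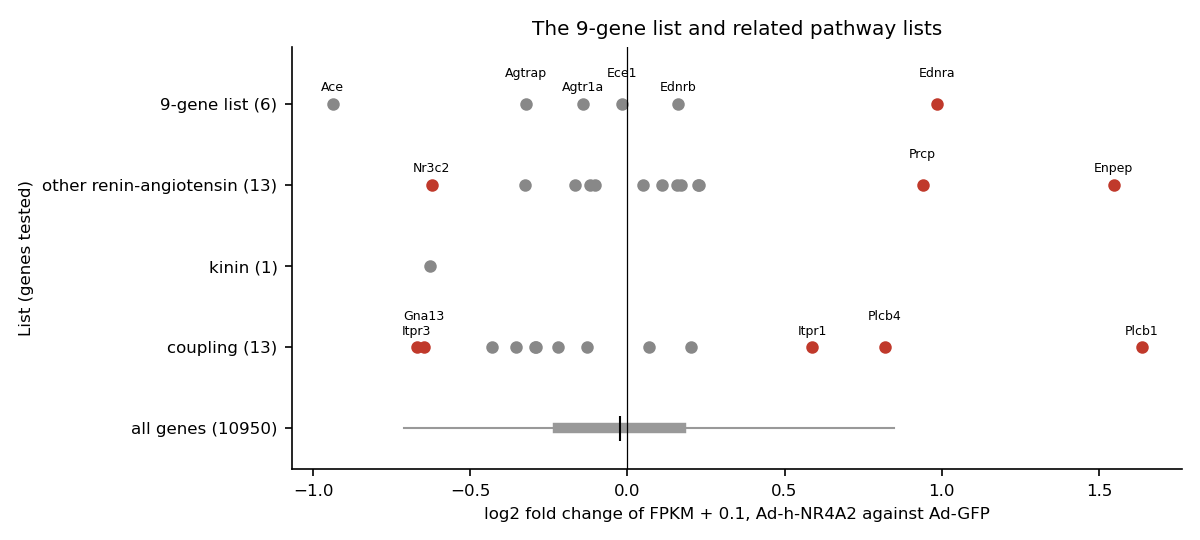
Log2 fold change of FPKM + 0.1 (Ad-h-NR4A2 against Ad-GFP) of every tested gene of the 9-gene list, the other renin-angiotensin genes, the kinin genes, and the coupling genes; red points passed both limits. The bottom row shows the median (tick), the middle 50% (thick bar), and the span from the 5th to the 95th percentile (thin line) of all 10950 genes; Enpep and Plcb1 lie farthest to the right and Ace farthest to the left.

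For the members averaging at least 1 FPKM, the variation between samples within a group was compared with that of 8977 other genes above this level. Over 12 samples, the deviations of Ednra from its group means followed those of Zfp955a most closely (Pearson's r = 0.951), then Chmp4c (0.926) and Fbxo21 (0.921). For Ace the closest were Steap4 (0.985), Calm3 (0.980), and Fuca2 (0.976), for Agtrap Osgepl1 (0.967), and for Ece1 Pdk4 (0.882). These are the highest of many correlations over few samples that share libraries and numbers, and are given as a description.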

How the data were processed

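RNA of 12 ARVM samples was sequenced. As the study states, the authors aligned paired-end reads of stranded mRNA libraries to Rn5 with STAR and quantified RefSeq transcripts with Cufflinks. The deposited values are FPKM, in which the authors scaled fragments by transcript length and mapped fragments. Their confidence limits equal the FPKM in 225016 of 225024 values and were not used.

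Groups and the numbers 24 to 29 come from the labels. For each gene name the transcript with the highest mean FPKM was kept, and 10950 genes above 0 in all samples were fitted as log2(FPKM + 0.1) with limma 3.58.1 (eBayes with trend, two-sided, Benjamini-Hochberg) in R 4.3.3, without a block as in the study's unpaired statistics. A fold change on this scale understates the change of low genes. A gene was called at an adjusted p below 0.05 and a ratio of mean FPKM of at least 1.5. Single genes were compared by exact permutation over 924 arrangements. Deviations from the group means correlated within all 6 numbers (r = 0.347 to 0.623), and the numbers were treated as pairing the samples. The labels do not say what the numbers stand for, and samples of different numbers were not correlated for comparison. The blocked value is given where it changes a call.

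Depth was recovered from the steps of the low values: with effective lengths, 98.8% to 99.6% of values of at most 6 fragments came out whole within 0.05. Fragment numbers follow from it. Intervals and floors (3 fragments over a group) cover counting error only. Promoter windows were taken from a RefSeq table of GRCr8, and Rn5 positions from the deposited tables. The scripts were checked on simulated data. Alternatives were the pseudocount, filter, TPM scaling, quantile normalization, ratio limit, block, and leaving out each sample. Named genes are the 9 genes, Nr4a2, called genes of the pathway lists, Agtr1b, Mas1, Edn2, Edn3, and Ece2, and the genes most alike in their deviations; any other named gene was chosen after its values were seen, and a few genes the rule names are not reported here. The 9 genes and all lists were chosen with earlier results of these data known. Matplotlib 3.10.9, SciPy 1.17.1, NumPy 2.4.6, and pandas 2.3.3 were run under Python 3.11.15.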

Additional observations from a re-analysis of the deposited data

Results flagged for a closer look

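Agt in Ad-GFP was marked because sample 24 (0.0256 FPKM) lay apart from the other 5 samples, which were listed at 0; the value is a single fragment. It was the only one of 15 groups of 6 samples to pass Dixon's critical value of 0.625. With the other 5 samples at 0, any value above 0 passes, so the usual chance rate of about 1 group in 20 does not apply here.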

How the results depend on the processing

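The rise of Ednra kept its direction and an adjusted p below 0.05 in all 21 alternatives run on it (log2 fold change 0.92 to 1.04, limma's adjusted p 5.35e-07 to 3.25e-05). Of the 9 genes, 1 was called as reported. The number was 2 with quantile normalization and with the replicate block (Ednra and Ace), 2 with no limit on the ratio (Ednra and Agtrap), and 0 with a ratio of at least 2, since the ratio of Ednra was 1.997. Leaving out each sample in turn gave 1 to 2, with 2 (Ednra and Ace) without Ad-GFP 24, Ad-GFP 28, or Ad-h-NR4A2 29. The log2 fold change of Ace was -1.14 to -0.76 when a sample was left out and -0.53 to -1.14 over all alternatives, with limma's adjusted p from 3.19e-05 to 0.127. Of all genes, 1662 were called as reported, 4484 with no limit on the ratio, 803 with a ratio of at least 2, and 1542 to 1770 when a sample was left out; with the replicate block 1825 were called. The block changed no call of the 9 genes other than Ace. The sign of Ece1 was positive with quantile normalization (0.0043), and its log2 fold change was -0.059 to 0.025 when a sample was left out, never past the limit; the cause was not tested. With a pseudocount of 0.01 or 1, Edn1 was at -0.92 or -0.026 and Agtr1a at -0.31 or -0.021, neither past the limit. Agtrap stayed between -0.36 and -0.28, with adjusted p of at most 0.0112. No scaling moved the median of all genes by more than 0.1. Depth limits Agt, Agtr2, Edn1, and Agtr1a, for which a difference was not detectable from the fragments at hand.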

Other observations

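Hsd11b2, which encodes the enzyme that inactivates glucocorticoids and so protects the mineralocorticoid receptor, was named after its values were seen. It was at 0 to 0.0646 FPKM in Ad-GFP (0 to 3 fragments per sample) and at 0.706 to 2.101 FPKM in Ad-h-NR4A2 (28 to 78 fragments per sample), without overlap and higher in 6 of 6 numbers. It was left out of the test because Ad-GFP 27 was at 0. In limma's fit without the filter its log2 fold change was 3.27 (SE 0.23, adjusted p = 3.36e-07). Mme, which encodes neprilysin, a peptidase of angiotensin and endothelin, was also named afterwards. It totaled 10 fragments in Ad-GFP (0 to 4 per sample) and 33 in Ad-h-NR4A2 (3 to 10 per sample), with overlapping groups and at most 0.125 FPKM. Mme was higher in 6 of 6 numbers and had a limma adjusted p of 0.0111 in the same fit.

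The ratio of Ednra to Ednrb was computed after the data were seen. It was 6.96 to 23.8 (median 14.5) in Ad-GFP and 12.2 to 33.8 (median 26.7) in Ad-h-NR4A2, with overlapping groups. It was higher in 6 of 6 numbers, with a log2 difference of 0.81 (two-sided exact permutation p = 0.0714). The exact sign-flip test gave p = 0.03125, the smallest that 64 sign flips allow.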
